A study of Mus musculus with 2 samples.

Results

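Transcripts of 7 subunits of the ionotropic receptors for GABA were followed through the cell classes of the mouse retina in 1 wild-type (WT) library and 1 library from mice with an mtDNA mutation in ND6. The members were chosen by gene symbol, as Gabrr1, Gabrr2, Gabra2, Gabra3, Gabrb1, Gabrb2 and Gabrg3, which are 7 of the 19 ionotropic subunit genes and 7 of the 32285 genes in the count tables. Whole retina was dissociated with trypsin and papain, and 3′ transcript ends were counted as unique molecular identifiers (UMIs) in droplets. Both libraries came from male C57BL/6J mice aged 7 months, of genotype WT or ND6. The ND6 mice carry the P25L change in a subunit of respiratory complex I, a model of Leber's hereditary optic neuropathy, as a homoplasmic mutation in the whole body and not in a chosen cell type. The number of animals behind a library is not given in the sources used here, and with 1 library per genotype the genotype and the library cannot be told apart. No difference between the libraries could therefore be tested, and every interval below is an exact 95% interval that covers counting error only.

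GABA is the main inhibitory transmitter of the retina, released by horizontal cells and by the larger part of the amacrine cells. Its ionotropic receptors are chloride channels built of 5 subunits, and the subunits set the kinetics and the drug response. Alpha, beta and gamma subunits form GABA-A receptors, which open and desensitise fast, whereas the rho subunits encoded by Gabrr1 and Gabrr2 form slow receptors that bicuculline does not block and that are best known from bipolar cell axon terminals. Inhibition at these terminals limits the glutamate that bipolar cells pass on to ganglion cells.

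The rho genes lie next to each other in the same direction, Gabrr2 at chr4:33062999-33095865 and Gabrr1 at chr4:33132521-33163588 of GRCm38, with 36.7 kb between them. Gabra2 (chr5:70957597-71095849) and Gabrb1 (chr5:71658113-72149037) share a chromosome on opposite strands, Gabra3 lies at chrX:72432681-72656848, Gabrb2 at chr11:42419757-42629028 and Gabrg3 at chr7:56716465-57387188. RefSeq promoters (GRCm38.p6, 250 bases before to 50 after a start) were available as 11 entries for the 7 members. TAATCC, the core of the sites bound by the photoreceptor and bipolar cell factors CRX and OTX2, or its reverse complement GGATTA, was in 2 of these entries, against 7.06% of all 32851 promoters. TAATTA, a core bound by paired homeodomain factors and the same on both strands, was in 0 of them, against 5.29% of all. The rho promoters are shown because these neighbours had the highest levels of the members and their mix varied between groups of cells, and the Gabra2 promoter because it holds the other match. Capitals mark the TAATCC core on either strand, 246 bases before the start of Gabrr2 and 139 bases before that of Gabra2. A match is a run of letters, not a shown binding site.
Gabrr1, chr4:33132306-33132605, plus strand: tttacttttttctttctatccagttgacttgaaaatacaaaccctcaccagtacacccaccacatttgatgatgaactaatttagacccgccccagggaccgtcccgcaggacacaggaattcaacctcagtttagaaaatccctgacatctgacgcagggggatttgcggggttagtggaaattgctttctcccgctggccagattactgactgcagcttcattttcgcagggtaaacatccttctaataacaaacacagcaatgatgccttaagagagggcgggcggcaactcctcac
Gabrr2, chr4:33062862-33063161, plus strand: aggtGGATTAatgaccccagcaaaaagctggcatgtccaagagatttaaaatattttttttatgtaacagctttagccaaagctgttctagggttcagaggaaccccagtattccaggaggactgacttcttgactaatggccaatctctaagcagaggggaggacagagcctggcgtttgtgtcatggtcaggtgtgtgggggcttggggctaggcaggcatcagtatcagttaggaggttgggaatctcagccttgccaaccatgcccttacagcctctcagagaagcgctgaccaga
Gabra2, chr5:71095800-71096099, minus strand: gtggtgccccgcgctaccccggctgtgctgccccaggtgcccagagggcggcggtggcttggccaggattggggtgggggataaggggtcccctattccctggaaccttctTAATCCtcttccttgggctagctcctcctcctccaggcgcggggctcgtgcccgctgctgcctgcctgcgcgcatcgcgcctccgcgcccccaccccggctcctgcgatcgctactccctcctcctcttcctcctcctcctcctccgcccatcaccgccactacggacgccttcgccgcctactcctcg

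In all, 77958836 UMIs were counted in WT and 80358255 in ND6. Barcodes that held more than 400 UMIs from over 200 genes, with mtDNA-encoded genes giving no more than 20% of these, were taken as cells. They numbered 12529 in WT, with a median of 1878 UMIs, and 18395 in ND6, with a median of 1416. The mtDNA limit removed 10647 further barcodes in WT and 3861 in ND6, and 59 cell barcodes occurred in both libraries. Cells were clustered without the 7 members and named from marker genes, which gave 232 WT and 638 ND6 bipolar-like cells, 95 and 366 amacrine-like, 9814 and 13822 rod-like, 629 and 1117 cone-like, 37 and 92 Müller-like and 333 and 963 cells like retinal pigment epithelium (RPE). Other clusters held 247 WT and 139 ND6 microglia-like cells and 85 and 23 cells like red blood cells. A cluster led by Nefl, Bc1 and the Müller marker Glul, with 1057 WT and 1235 ND6 cells, was left unnamed. No cluster was named for ganglion or horizontal cells. Barcodes of 10 to 100 UMIs, 7324 in WT and 8621 in ND6, served as a measure of free RNA. Its makeup differed between the libraries. The 16 bipolar markers summed to 526.2 CPM (counts per 1000000 UMIs) of free RNA in WT, with Vsx1 and Lhx4 at 0, and to 1531 CPM in ND6, with none at 0. The 13 amacrine markers summed to 132.7 CPM in WT, with Tfap2a, Gad1 and C1ql2 at 0, and to 1017 CPM in ND6, with none at 0.

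Each member had 1 class in which it was most abundant, and for 5 of the 7 that class was the same in both libraries and stood clear of the next. Levels are CPM of the UMIs summed over the cells of a class. Gabrr1 and Gabrr2 were highest in bipolar-like cells, and Gabra2, Gabra3 and Gabrg3 in amacrine-like cells. Gabrb1 was highest in RPE-like cells in WT and in amacrine-like cells in ND6, and Gabrb2 in amacrine-like cells in WT and in bipolar-like cells in ND6. For these beta subunits the highest and the second class did not differ beyond counting error in either library. The distance from the highest to the second class, as a log2 ratio of CPM, was 3.88 in WT and 2.31 in ND6 for Gabrr1, both times over Müller-like cells. It was 3.40 and 2.33 for Gabrr2 over the same class. For Gabrg3 it was 4.97 over bipolar-like cells in WT and 4.46 over cone-like cells in ND6. The gap of Gabra3 was 4.94 in WT and 3.29 in ND6, over bipolar-like cells in both. That of Gabra2 was 4.43 over cone-like cells in WT and 2.62 over Müller-like cells in ND6.

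**Figure D1:**
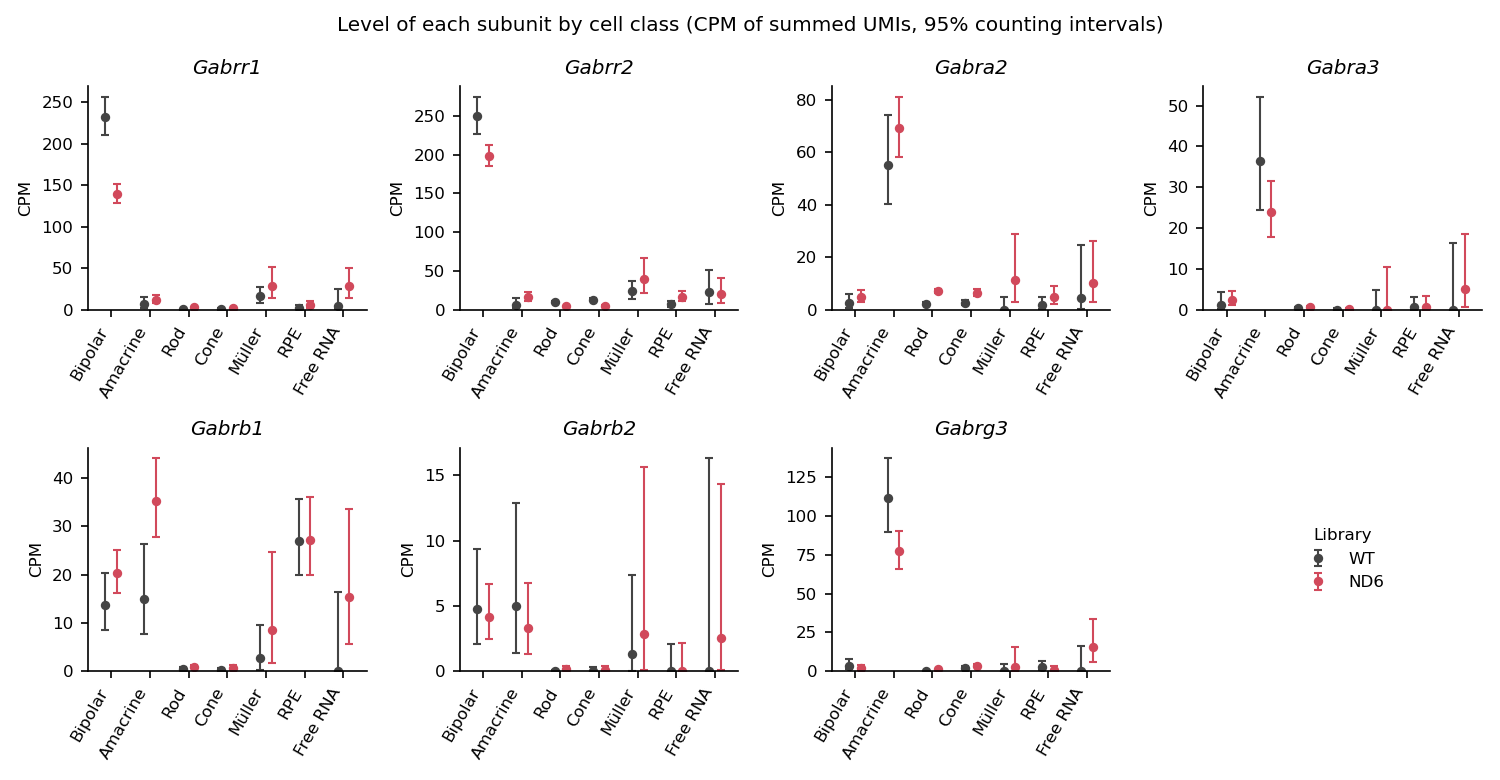
Level of each subunit (CPM of summed UMIs) in 6 cell classes and in free RNA, with WT in dark grey and ND6 in red and bars for 95% counting intervals. The rho subunits Gabrr1 and Gabrr2 peak in bipolar-like cells and Gabra2, Gabra3 and Gabrg3 in amacrine-like cells of both libraries, while Gabrb1 is spread over bipolar-like, amacrine-like and RPE-like cells and Gabrb2 is low throughout. Bars on points at 0 are Poisson upper bounds.

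Bipolar-like cells carried the bulk of the rho transcripts. Gabrr1, the rho1 subunit, which can form a channel by itself, had 393 UMIs in WT bipolar-like cells, or 232.4 CPM (210.0 to 256.5), and 571 UMIs in ND6, or 139.6 CPM (128.4 to 151.6). Gabrr2, the rho2 subunit, had 423 UMIs and 250.1 CPM (226.8 to 275.1) in WT and 811 UMIs and 198.3 CPM (184.9 to 212.5) in ND6. Both levels were lower in the ND6 library, and the intervals of the libraries did not overlap for either gene. The log2 ratio of ND6 to WT was -0.73 (-0.92 to -0.55) for Gabrr1 and -0.33 (-0.51 to -0.16) for Gabrr2. A ratio was called when it was past 1.5-fold on at least 20 UMIs. By this rule 1 member of the 5 with enough UMIs was lower in ND6 bipolar-like cells, Gabrr1, and 1 was higher, Gabra2, where 4.68% of 11528 genes were lower and 14.5% higher. Gabra2 rested there on 4 and 20 UMIs, and its interval of -0.53 to 3.06 included no change. Gabrr1 no longer passed 1.5-fold with at most 10% of mtDNA UMIs (-0.45) or without the highest 10% of doublet scores (-0.48), and the latter setting left Gabrr2 at -0.06.

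The bipolar-like class was not made up alike in the libraries. It consisted of a cluster led by rod bipolar genes such as Trpm1, Pcp2 and Car8, with 67 cells in WT and 49 in ND6, and a cluster of the other bipolar cells, with 165 and 589. The first cluster was 28.9% of the class in WT and 7.7% in ND6. Within it, Gabrr1 stood at 397.2 CPM in WT and 356.8 in ND6, a log2 ratio of -0.15 (-0.53 to 0.22). Gabrr2 stood there at 337.1 and 304.9 CPM, with the same ratio of -0.15 (-0.55 to 0.26). In this cluster no difference was detectable for either gene at this depth. In the cluster of other bipolar cells Gabrr1 was at 184.2 CPM in WT and 123.2 in ND6, a log2 ratio of -0.58 (-0.81 to -0.35). Gabrr2 was at 224.7 and 190.3 CPM, a ratio of -0.24 (-0.44 to -0.04). The point ratios within the other bipolar cells were smaller in size than those over the class, but the intervals overlapped and this was not tested. Markers of Müller cells in bipolar-like cells, all 12 with UMIs, summed to 645.1 CPM in WT and 1883 in ND6. The 16 bipolar markers, none at 0, summed to 7847 CPM in ND6 and 10750 in WT. In the cluster led by rod bipolar genes, where the rho levels were alike within counting error, the Müller markers stood at 347.6 CPM in WT, with Slc1a3, Sox9 and Kcnj10 at 0, and at 1642 in ND6, with none at 0. Their part in the rho ratios was not tested.

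A Gabrr1 UMI was seen in 70.69% of WT bipolar-like cells (64.38 to 76.46) and in 50.63% of ND6 ones (46.67 to 54.57), at median depths of 4951.5 and 4046.5 UMIs. Rod-like cells, at medians of 1784 and 1340 UMIs, had one in 0.2038% and 0.7307% of cells. With every cell thinned to 400 UMIs, the bipolar-like shares were 14.66% in WT and 7.524% in ND6, and the intervals of 10.37 to 19.87 and 5.599 to 9.852 did not meet. For Gabrr2 the shares of bipolar-like cells were 63.79% and 53.29%, and 10.78% and 9.561% after thinning, with overlapping intervals. Thinning was a single random draw, in which the difference in the share of cells was larger than counting error for Gabrr1 and not for Gabrr2. Equal depth does not even out the makeup of the class, which differed between the libraries.

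Among subclusters of the bipolar-like cells the mix of the rho subunits ran from almost pure Gabrr1 to mostly Gabrr2. The subcluster led by Gas1, Rbp4, Adarb2 and Pcdh17 had 21 Gabrr1 UMIs and 1 Gabrr2 UMI in WT and 56 and 2 in ND6. Gabrr2 was 4.55% of the rho1 and rho2 UMIs there in WT (0.115 to 22.8) and 3.45% in ND6 (0.42 to 11.9). Its Gabrr1 level, 282.3 CPM in WT and 211.9 in ND6, was not below that of the class. It lay between that of rod bipolar-like cells (433.1 and 361.7 CPM) and that of the subcluster led by Slc8a1 and Sox6 (273.3 and 122.5 CPM). Against the class as a whole these cells were thus low in Gabrr2 and not in Gabrr1. The class level includes a subcluster led by photoreceptor genes, with Gabrr1 at 31.14 CPM in WT and 45.03 in ND6. That subcluster held 610079 of the 1691237 UMIs of the class in WT and 1887460 of 4088834 in ND6. Whether Gabrr1 in the cells led by Gas1 and Rbp4 was below that of the remaining bipolar-like cells was not tested. This group raised 3 OFF cone bipolar markers, Nnat, Pcdh17 and Pcdh10, but was also led by the cone gene Cngb3 and was left unnamed.

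The WT range ended in the subcluster led by Slc8a1, Hs3st4 and Neurod2, which raised the ON cone bipolar markers Sox6 and Kcng4. Gabrr2 was 76.4% of its rho UMIs in WT (67.2 to 84.1) and 72.1% in ND6 (64.3 to 79.0), and reached 846.3 CPM and 619.6 CPM, the highest Gabrr2 level of any subcluster with 20 or more rho UMIs in each library. Rod bipolar-like cells, 65 in WT and 60 in ND6, held close to equal amounts of both. Gabrr2 was 45.2% of their rho UMIs in WT (39.2 to 51.3) and 45.9% in ND6 (39.0 to 52.9). The OFF cone bipolar-like subcluster, of 27 and 74 cells, stood at 30% (18.8 to 43.2) and 43.6% (34.4 to 53.1). It raised the OFF cone bipolar markers Grik1, Nnat, Prkar2b and Col11a1. The cone markers Gnat2, Gngt2 and Cngb3 and the microglia markers C1qb and Ctss were raised in it too.

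A subcluster led by the haemoglobin gene Hbb-bs and by Igfn1, Reln and Cabp2, with 13 cells in WT and 50 in ND6, was left unnamed and had another mix in each library. Its Gabrr2 share was 55.6% in WT (46.8 to 64.1) and 74.4% in ND6 (68.5 to 79.7), the upper end of the ND6 range, and these intervals did not overlap. The shift came from Gabrr1, at 408.2 CPM in WT and 170.7 in ND6, a log2 ratio of -1.26 (-1.79 to -0.72). Gabrr2 in the same cells was at 510.3 and 496.2 CPM, a ratio of -0.04 (-0.43 to 0.37). The 13 WT cells had a mean of 11310 and a median of 6338 UMIs, and spread between cells is outside these intervals. A subcluster led by Slc8a1 and Sox6 also had less Gabrr1 in ND6, at 122.5 CPM against 273.3 in WT (-1.16, -1.96 to -0.35). In the rod bipolar-like subcluster led by Lrrtm4 and Nebl, Gabrr1 was at 454.5 CPM in WT and 425.0 in ND6, a ratio of -0.10 (-0.53 to 0.33). The other rod bipolar-like subcluster, led by Sebox and Vstm2b, had Gabrr1 at 389.6 and 249.0 CPM (-0.65, -1.38 to 0.07). Gabrr2 stood there at 318.7 and 177.9 CPM (-0.84, -1.71 to -0.01), so the ratios of the rod bipolar-like subclusters were not all near 0. Whether the ratio differed between subclusters was not tested.

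One subcluster of the bipolar-like cells, led by Casz1 and by photoreceptor genes such as Rp1 and Grk1, raised all 10 rod markers and weighs heavily in the class. Its 20 WT and 92 ND6 cells held 610079 of the 1691237 UMIs of the class in WT and 1887460 of 4088834 in ND6, with Gabrr1 at 31.14 and 45.03 CPM and Gabrr2 at 59.01 and 76.29 CPM. Without it the log2 ratio of ND6 to WT in bipolar-like cells was -0.65 (-0.85 to -0.45) for Gabrr1 and -0.24 (-0.42 to -0.06) for Gabrr2, an alternative chosen after seeing the data. The rho levels in these cells were below those of the class in both libraries.

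**Figure D2:**
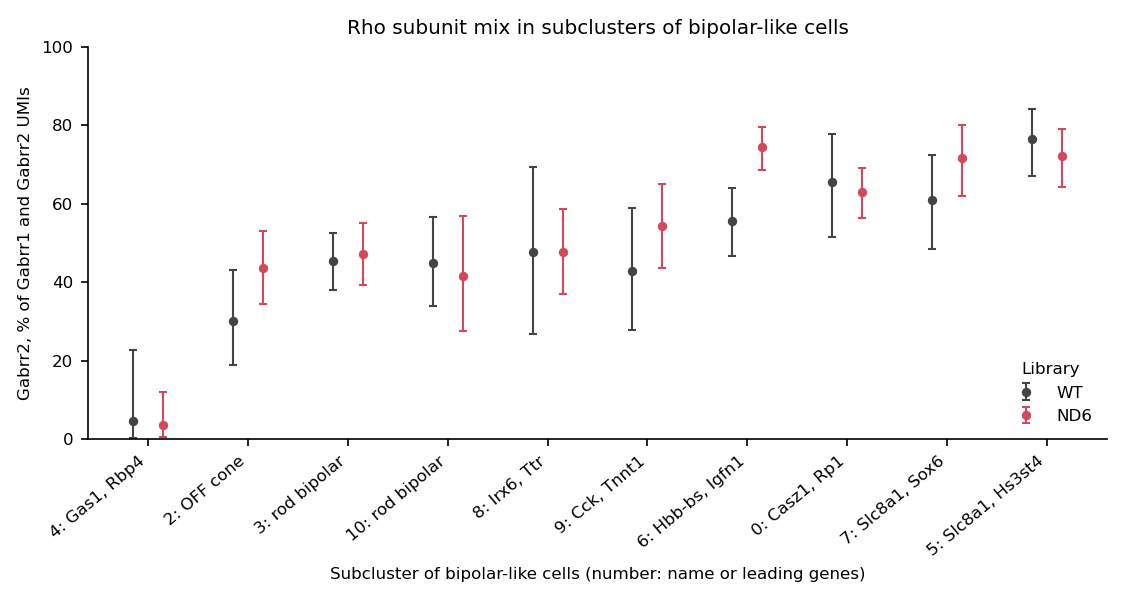
Share of Gabrr2 in the summed Gabrr1 and Gabrr2 UMIs (%) in the 10 subclusters of bipolar-like cells that have 20 or more of these UMIs in each library, with WT in dark grey, ND6 in red and 95% exact binomial intervals. The share runs from 4.55% in WT and 3.45% in ND6, in the subcluster led by Gas1 and Rbp4, to 76.4% in WT in that led by Slc8a1 and Hs3st4 and to 74.4% in ND6 in that led by Hbb-bs and Igfn1, where the intervals of the libraries part.

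Photoreceptors had far lower levels of rho RNA, but because of their number they held a large part of the Gabrr2 molecules. Rod-like cells carried 35.9% and cone-like cells 14.3% of all Gabrr2 UMIs in WT cells, and 13.3% and 5.6% in ND6. The corresponding shares of Gabrr1 were 4.46% and 1.79% in WT and 13.4% and 3.05% in ND6. Gabrr2 in rod-like cells had 342 UMIs or 9.57 CPM (8.58 to 10.6) in WT and 150 UMIs or 4.15 CPM (3.51 to 4.87) in ND6. In cone-like cells it had 136 UMIs or 12.9 CPM (10.8 to 15.3) in WT and 63 UMIs or 4.17 CPM (3.21 to 5.34) in ND6. The ND6 levels were the lower ones in both photoreceptor classes, with intervals clear of WT. The log2 ratios of ND6 to WT were -1.21 (-1.49 to -0.92) in rod-like and -1.63 (-2.08 to -1.19) in cone-like cells. As a mean over cells, where each cell weighs the same, the rod ratio was -0.47, and with rods called from the markers of each cell it was -0.72.

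Free RNA bears on these low values. Gabrr2 was at 22.11 CPM of free RNA in WT, from 5 UMIs (7.18 to 51.6 CPM), and at 20.55 CPM in ND6, from 8 UMIs, so the photoreceptor levels did not exceed those of free RNA. WT microglia-like cells, a class that should lack rho subunits, had 0 Gabrr2 UMIs of 807239. That allows up to 3.72 CPM at 3 counts and 4.57 CPM by the exact bound, both below the WT rod-like and cone-like levels. WT cells like red blood cells, also not neurons, had 1 Gabrr2 UMI of 182322, 5.485 CPM with an upper bound of 30.56 CPM. That range holds both WT photoreceptor levels. In ND6, 1 Gabrr2 UMI in microglia-like cells gave 3.17 CPM with an upper bound of 17.7 CPM, and the photoreceptor levels were within this range. The ratio of the rho subunits differed as well. Gabrr1 was 5.52% of the rho UMIs in WT rod-like cells (3.41 to 8.40) and 5.56% in WT cone-like cells (2.43 to 10.7), against 48.2% in WT bipolar-like cells (44.7 to 51.7). In ND6 it was 40.2% in rod-like cells (34.1 to 46.6) and 26.7% in cone-like cells (17.8 to 37.4), against 41.3% in bipolar-like cells (38.7 to 44.0). The 16 bipolar markers summed to 245.8 CPM in WT cone-like cells, with Vsx1 at 0, and to 308.6 CPM in ND6, with none at 0, and their part in the Gabrr2 levels was not tested. The WT photoreceptors thus had a mix apart from that of bipolar-like cells, while in ND6 the rod-like mix was within counting error of it. In free RNA Gabrr1 was 16.7% of the rho UMIs in WT (0.421 to 64.1), a range that holds the photoreceptor shares, and 57.9% in ND6 (33.5 to 79.7).

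Gabrr1 moved in the opposite direction to its neighbour in rods. It had 20 UMIs or 0.560 CPM in WT rod-like cells and 101 UMIs or 2.80 CPM in ND6, a log2 ratio of 2.32 (1.62 to 3.09). With rods called from the markers of each cell the ratio was 1.47. Free RNA held 1 Gabrr1 UMI in WT and 11 in ND6, 28.3 CPM, and the 16 bipolar markers, all with UMIs, summed to 186.3 CPM in WT and 301.6 CPM in ND6 rod-like cells. The part of this background in the Gabrr1 level was not tested.

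The Gabrr2 ratio was not alike in all rod clusters. Rod-like cells fell into 7 clusters that differ in depth and in nuclear and ribosomal RNA, and the libraries filled them unevenly, with 2101, 1936 and 1908 WT cells in clusters 0, 3 and 2 and 3293, 2985 and 2277 ND6 cells in clusters 0, 1 and 2 as the fullest. In cluster 3, led by Tcea3 and Pdc, Gabrr2 was at 9.54 CPM in WT and 2.46 in ND6 (-1.96, -2.62 to -1.33). In cluster 6, the deepest, it was at 12.3 and 5.32 CPM (-1.22, -1.69 to -0.76). Cluster 5, led by the nuclear RNA Malat1, gave 15.8 and 6.22 CPM (-1.34, -2.50 to -0.28). These 3 clusters and the cones shared the lower level in ND6. In the ribosomal gene-rich clusters 0, 1 and 2 the ratios were 0.37, 0.38 and 0.40, on 27 to 35 UMIs each over both libraries, with intervals that included 0 and lay apart from that of cluster 3. Whether the ratio differed between clusters was not tested. Cluster 8, the shallowest, had 2 UMIs in each library.

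**Figure D3:**
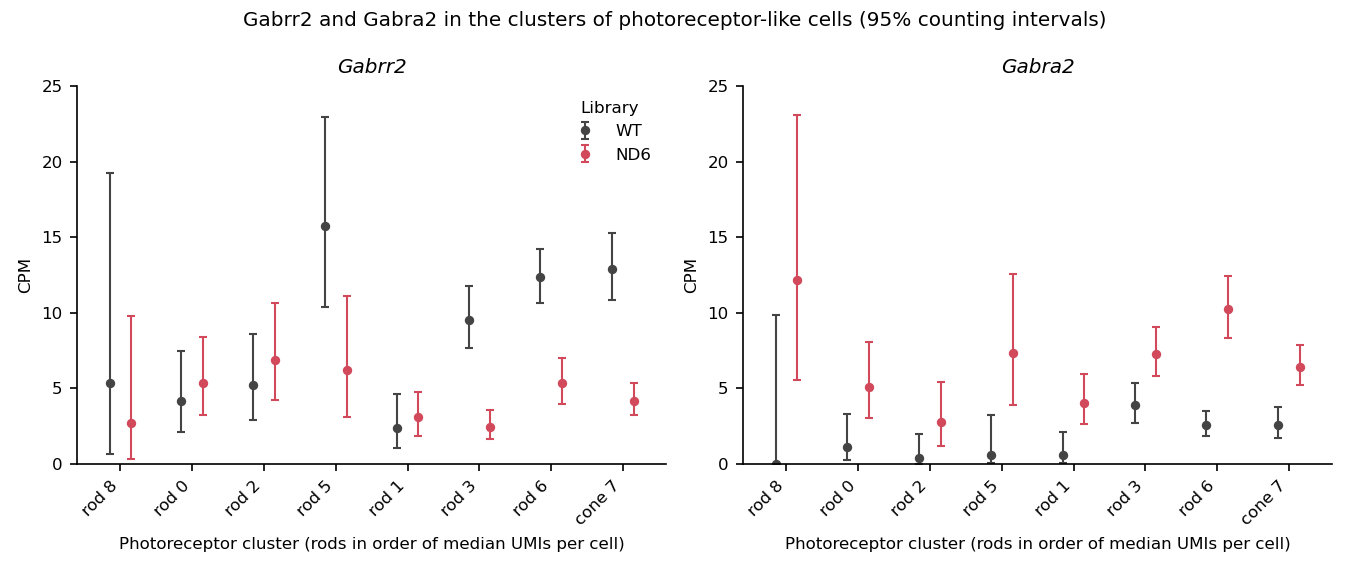
Gabrr2 (left) and Gabra2 (right) in the 7 clusters of rod-like cells, ordered by median UMIs per cell, and in the cone-like cluster, as CPM of summed UMIs with WT in dark grey, ND6 in red and 95% counting intervals. Gabrr2 is lower in ND6 in rod clusters 5, 3 and 6 and in cones, while Gabra2 is higher in ND6 in each cluster, with WT at 0 UMIs in cluster 8.

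Gabra2, the alpha2 subunit, showed the reverse pattern in photoreceptors. Rod-like cells had 82 UMIs or 2.30 CPM in WT and 254 UMIs or 7.03 CPM in ND6, a log2 ratio of 1.61 (1.25 to 1.99), and the ratio stayed between 1.38 and 1.95 in the alternatives run. Cone-like cells had 27 UMIs or 2.56 CPM and 97 UMIs or 6.43 CPM, a ratio of 1.33 (0.70 to 2.0), which was 0.38 as a mean over cells. In the deepest rod cluster the levels were 2.53 and 10.2 CPM (2.01, 1.46 to 2.59). Free RNA had 1 Gabra2 UMI in WT (4.42 CPM) and 4 in ND6 (10.28 CPM), so these levels too were not above free RNA. ND6 rod-like cells held 254 Gabra2 and 41 Gabrg3 UMIs, ND6 amacrine-like cells 147 and 165, and the GABAergic-like cells among these 43 and 8. The source of the Gabra2 UMIs in rods was not tested.

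Of the 6 members with 20 or more UMIs in rod-like cells, 5 were called higher and 1, Gabrr2, lower in ND6, against 17.6% higher and 5.47% lower of 13531 genes. The median log2 ratio was 1.24 over these members and 0.03 over all genes. Among the other ionotropic subunits 5 of 5 were called higher, with a median of 1.44, so Gabrr2 was the single ionotropic subunit called lower in ND6 rods. Among them were Gabrr3 (1.44) and Gabrd (0.65). The intervals of Gabra3 (0.72, -0.38 to 1.89), Gabrb1 (0.86, -0.01 to 1.77) and Gabrd (-0.47 to 1.82) included no change. The 13 amacrine markers, all with UMIs, summed to 37.28 CPM in WT and 109.0 CPM in ND6 rod-like cells, whose part in these ratios was not tested. In cone-like cells 3 members of 4 were called higher and Gabrr2 lower, against 10.2% and 5.59% of 12283 genes. Gabrg3 was 1 of these, at 2.09 CPM in WT and 3.51 in ND6 (0.75, 0.01 to 1.54), but its ratio was -0.86 as a mean over cells. In rod-like cells Gabrg3 had 4 UMIs in WT and 41 in ND6, a ratio of 3.34 that lay between 1.34 and 5.48 in the alternatives run.

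**Figure D4:**
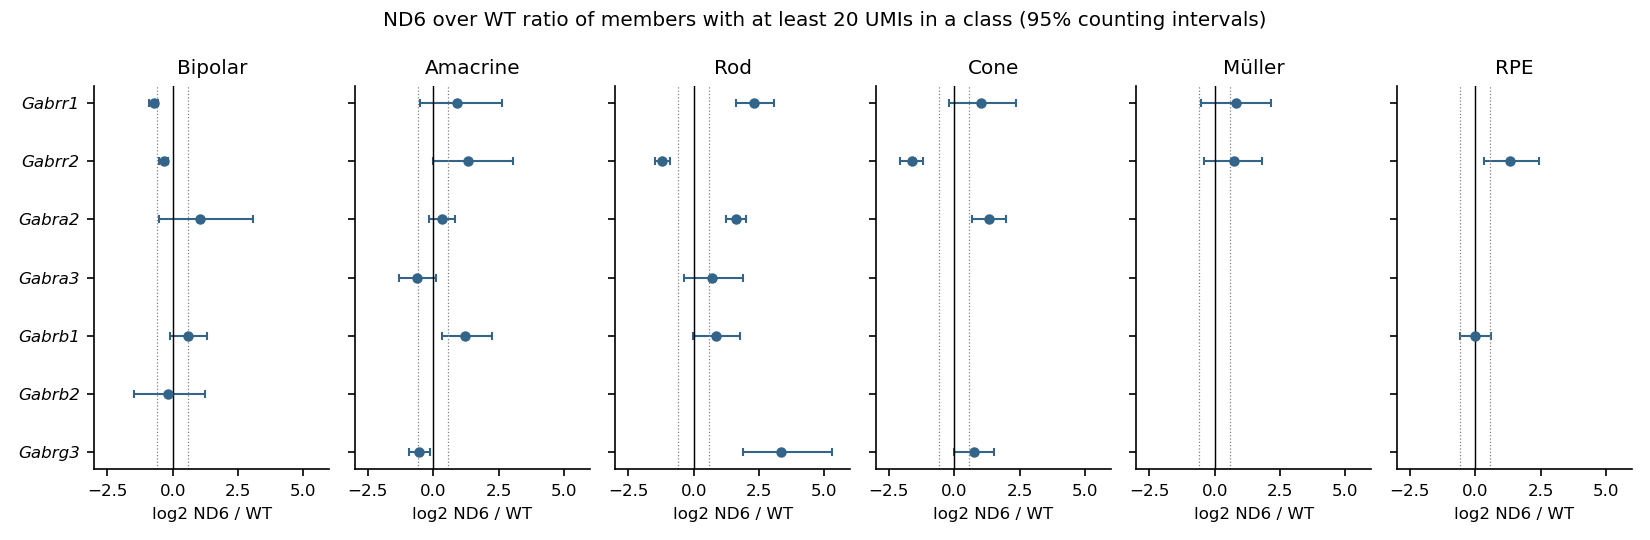
Log2 ratio of ND6 to WT of each member with at least 20 UMIs in a class, with 95% counting intervals, a solid line at no difference and dotted lines at 1.5-fold in either direction. Gabrr2 lies to the left in rod-like (-1.21) and cone-like cells (-1.63), where Gabra2 lies to the right (1.61 and 1.33), and Gabrr1 lies to the left in bipolar-like (-0.73) and to the right in rod-like cells (2.32).

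Amacrine-like cells had the highest levels of the alpha2, alpha3 and gamma3 subunits. Gabrg3, the gamma3 subunit, was the most abundant member there, with 89 UMIs or 111.6 CPM (89.6 to 137.3) in WT and 165 UMIs or 77.5 CPM (66.1 to 90.3) in ND6. Gabra2 had 44 UMIs or 55.2 CPM (40.1 to 74.0) in WT and 147 UMIs or 69.1 CPM (58.3 to 81.2) in ND6. Gabra3, the alpha3 subunit, had 29 UMIs or 36.4 CPM (24.3 to 52.2) and 51 UMIs or 24.0 CPM (17.8 to 31.5). The order Gabrg3, Gabra2, Gabra3 was the same in both libraries, and in ND6 Gabrg3 and Gabra2 did not differ beyond counting error. All values here are of the whole class, in which some subclusters raised 4 or more markers of photoreceptors, ganglion or Müller cells. Without these subclusters 64 of the 95 WT and 174 of the 366 ND6 cells remained, a set chosen after seeing the data. UMIs of 3′ ends do not scale with transcript length, though capture can differ between genes. The log2 ratio of ND6 to WT was -0.53 (-0.91 to -0.14) for Gabrg3, which was 0.38 without the mtDNA limit. It was 0.32 (-0.17 to 0.84) for Gabra2, which was 1.24 without the limit and 1.42 as a mean over cells, and -0.60 (-1.29 to 0.11) for Gabra3, which was 0.19 without that limit. Of 6 members, 3 were called higher and 1, Gabra3, lower, against 17.9% and 10.2% of 10781 genes. The higher ones were Gabrb1 and the rho subunits, with 5 UMIs each of Gabrr1 and Gabrr2 in WT and 25 and 34 in ND6. The intervals of Gabrr1 (0.91, -0.51 to 2.65) and Gabrr2 (1.35, -0.01 to 3.06) included no change, and Gabrr1 was at -1.37 as a mean over cells. Bipolar markers in amacrine-like cells, all 16 with UMIs, stood at 561.5 CPM in WT and 1078 in ND6, and their part in the rho values was not tested.

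Gabra2 and Gabrg3 were spread differently over the amacrine-like cells. In the GABAergic-like subcluster, led by the GABA-synthesising enzyme Gad1, with 7 cells in WT and 29 in ND6, Gabra2 reached 333.8 CPM (186.8 to 550.6) in WT and 200.9 CPM (145.4 to 270.6) in ND6. In the glycinergic-like subcluster, of 14 and 37 cells, which raised the horizontal cell markers Onecut1, Calb1 and Tfap2b too, Gabra2 had 0 UMIs of 110634 in WT and 1 in ND6 (4.15 CPM). Gabra2 thus separated the GABAergic-like from the glycinergic-like cells in both libraries. Gabrg3 was at 126.5 CPM (69.2 to 212.3) in WT and 182.8 CPM (132.8 to 245.4) in ND6 glycinergic-like cells, and at 66.8 CPM (13.8 to 195.1) and 37.4 CPM (16.1 to 73.6) in GABAergic-like cells. The intervals of these subclusters overlapped for Gabrg3 in WT and parted in ND6. Gabra3 was shared by both, at 89.0 CPM in WT and 51.4 in ND6 GABAergic-like cells and at 72.3 and 62.3 CPM in glycinergic-like cells.

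Other subclusters filled in this picture. One led by Necab3, Tfap2c and Ebf3 held Gabrg3 at 135.6 CPM in WT and 124.6 in ND6 (-0.12, -1.08 to 0.87). One led by Plxdc2 and Prdm13 held 51 Gabrg3 UMIs, 228.7 CPM, in 33 ND6 cells, and had 3 cells in WT. It also raised 10 of the 16 bipolar markers. A subcluster led by the ganglion cell genes Sncg, Slc17a6, Nefm and Rbpms had Gabra2 at 199.2 CPM in WT, from 3 cells, and 281.8 CPM in 63 ND6 cells. It held 21 of the 44 Gabra2 UMIs of the WT class and 50 of the 147 in ND6, and a subcluster led by the cone genes Pde6h and Opn1sw held 5 and 36 more. The lower Gabrg3 of ND6 was largest in a subcluster led by Ttr, Ptgds and Ebf1, at 270.3 CPM from 38 UMIs in WT and 54.5 CPM from 4 UMIs in ND6 (-2.31, -4.26 to -0.84). This subcluster thus held 38 of the 89 Gabrg3 UMIs of the WT class and 4 of the 165 in ND6. It held 140605 of the 797792 UMIs of the class in WT and 73346 of 2128871 in ND6. Its cells had a median of 6109.5 UMIs in WT and 910.5 in ND6, and the 7 RPE markers summed in it to 497.8 CPM in WT, with Lrat and Best1 at 0, and to 2400 CPM in ND6, with Best1 at 0. The part of depth and of RPE RNA in this difference was not tested. The class ratio of Gabrg3 was not computed without this subcluster alone.

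**Figure D5:**
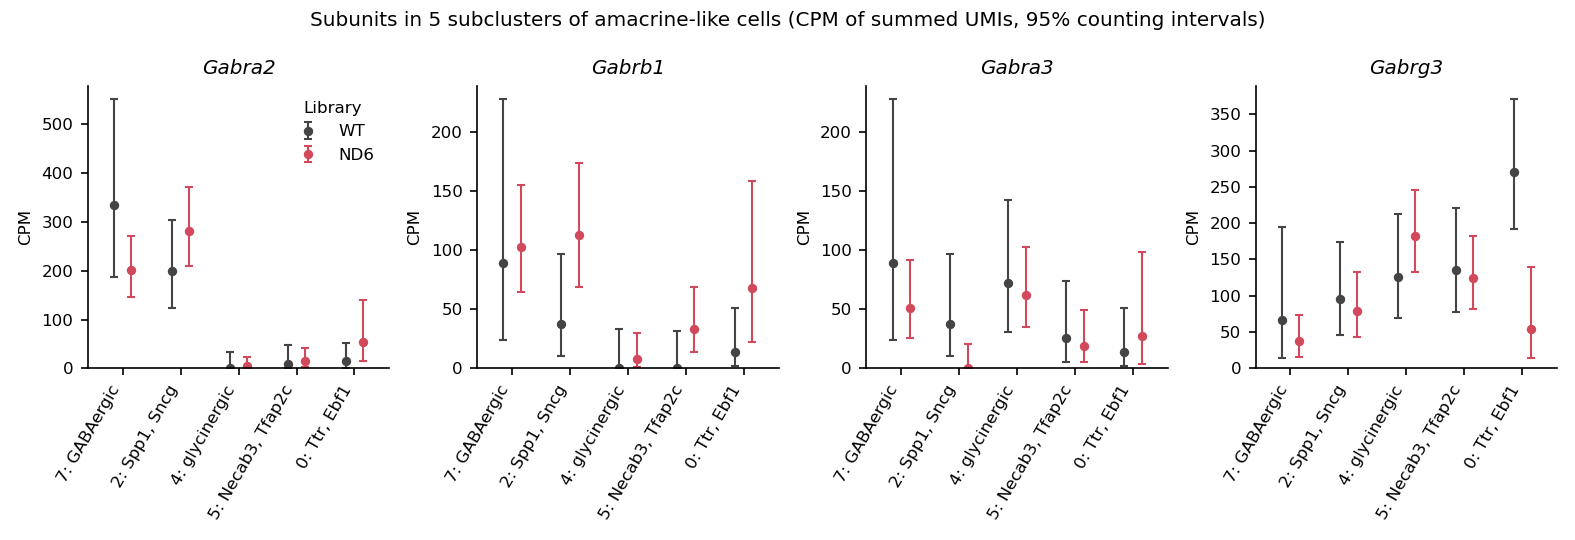
Gabra2, Gabrb1, Gabra3 and Gabrg3 (CPM of summed UMIs) in 5 subclusters of amacrine-like cells, named or given by their leading genes, with WT in dark grey, ND6 in red and 95% counting intervals. Gabra2 is high in the GABAergic-like and the Spp1 and Sncg-led subclusters and at or near 0 in the glycinergic-like one, while Gabrg3 is present in each.

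The beta subunits, which are needed for the assembly of most GABA-A receptors, had no class that stood clear of the next. Of them, Gabrb1 was spread over RPE-like, amacrine-like and bipolar-like cells. Gabrb1 stood at 27.1 CPM (20.02 to 35.8) in WT and 27.2 CPM (19.98 to 36.2) in ND6 RPE-like cells, from 49 and 47 UMIs. The log2 ratio of 0.01 was the closest match between the libraries of any member with 20 or more UMIs in a class, though it was 0.86 as a mean over cells. In amacrine-like cells it was at 15.0 CPM (7.77 to 26.3) in WT and 35.2 CPM (27.7 to 44.2) in ND6, a log2 ratio of 1.23 (0.34 to 2.24), which lay between 0.93 and 2.12 in the alternatives run. In bipolar-like cells it was at 13.6 CPM from 23 UMIs and 20.3 CPM from 83 UMIs (0.58, -0.10 to 1.31). Free RNA had 0 Gabrb1 UMIs in WT, with an upper bound of 16.31 CPM. In ND6 it had 6, or 15.41 CPM (5.656 to 33.55). The WT bipolar-like and amacrine-like levels lay below that bound. The ND6 bipolar-like and RPE-like levels lay within the ND6 range, and the part of free RNA in the Gabrb1 ratios was not tested. These bipolar UMIs were concentrated in few cells. An unnamed subcluster led by the RPE gene Ttr and by Irx6 and Slit2, with Erbb4 among its leading genes, held 9 of the 23 in 11 WT cells (174.0 CPM, 79.6 to 330.4) and 28 of the 83 in 42 ND6 cells (143.6 CPM, 95.4 to 207.6), levels above those of RPE-like cells themselves. A subcluster led by Cck and Tnnt1 held 2 and 12 more. Rod bipolar-like cells had 2 UMIs in WT and 0 in ND6.

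In amacrine-like cells Gabrb1 followed Gabra2. It was at 89.0 CPM (24.3 to 227.9) in WT and 102.8 CPM (64.4 to 155.6) in ND6 GABAergic-like cells, and at 0 UMIs of 110634 in WT and 8.31 CPM in ND6 glycinergic-like cells. Gabrb2 was scarce in every class. It had 8 UMIs in WT and 17 in ND6 bipolar-like cells, 4.73 and 4.16 CPM (-0.19, -1.48 to 1.23), and 4 and 7 UMIs in amacrine-like cells. In rod-like cells it had 0 UMIs in WT and 6 in ND6. This depth gives no account of Gabrb2 within classes.

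Müller-like cells, the main glia of the retina, gave a result of little weight. Gabrr1 had 12 UMIs or 15.8 CPM in WT and 10 UMIs or 28.1 CPM in ND6, and Gabrr2 had 18 UMIs or 23.7 CPM and 14 UMIs or 39.4 CPM. Both passed 1.5-fold, where 12.6% of 8106 genes were called higher and 30.2% in either direction, but both intervals included no difference. The cells differed in depth, with medians of 10329 UMIs in WT and 1707 in ND6, and the direction of both ratios turned as a mean over cells, to -2.09 for Gabrr1 and -0.15 for Gabrr2. The 16 bipolar markers summed in Müller-like cells to 1190 CPM in WT, with Vsx1 at 0, and to 1925 CPM in ND6, with none at 0, and their part was not tested. The other 5 members had 0 to 4 UMIs per library. The unnamed Glul-rich cluster was not part of this class, which grew to 237 WT and 567 ND6 cells with at least 1000 UMIs per cell. RPE-like cells had Gabrr2 at 6.63 CPM in WT and 16.8 in ND6 (1.34, 0.33 to 2.45), where 10.6% of 9645 genes were called higher, at medians of 2426 and 1108 UMIs per cell. The bipolar markers summed there to 256.3 CPM in WT, with Vsx1, Grm6 and Car8 at 0, and to 357.0 CPM in ND6, with none at 0, and their part was not tested.

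Summed over the 7 members, bipolar-like cells had 507.9 CPM (474.5 to 543.0) in WT and 371.7 CPM (353.3 to 390.9) in ND6, which is -0.45 as a log2 ratio (-0.57 to -0.33). The sum in amacrine-like cells was 235.7 and 236.7 CPM (0.01, -0.24 to 0.26), that in rod-like cells 13.4 and 16.7 CPM (0.32, 0.15 to 0.50) and that in cone-like cells 18.5 and 16.5 CPM. The sum in free RNA was 30.95 CPM (12.44 to 63.78) from 7 UMIs in WT and 97.6 CPM (69.08 to 134.0) from 38 UMIs in ND6. The sums of both photoreceptor classes were below that of free RNA beyond counting error in ND6 and within the interval of free RNA in WT, and the sums of bipolar-like and amacrine-like cells were above it in each library.

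Bipolar-like cells hold more ionotropic subunits than the 7 followed here. Of the UMIs of all 19 subunit genes in these cells, Gabrr1 made up 18.9% in WT and 13.2% in ND6, and Gabrr2 20.3% and 18.8%. Among the other 12 subunits, Gabrr3, the third rho gene, was at 50.9 and 54.3 CPM in bipolar-like cells and at 9.20 and 9.41 CPM in cone-like cells, with log2 ratios of 0.09 and 0.03. None of the 5 of those 12 genes with enough UMIs was called in bipolar-like cells, where 19.2% of genes were called in either direction. In WT rod-like cells Gabrr2 alone made up 50.3% of all ionotropic subunit UMIs (46.5 to 54.1), and in ND6 12.1% (10.4 to 14.1).

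In amacrine-like cells the other subunits gave 2 genes called higher and 1 lower of 5, where 17.9% of 10781 genes were called higher and 10.2% lower. Among them, Gabrd was at 7.52 CPM in WT and 14.1 in ND6 (0.91, -0.38 to 2.46) and Gabra4 at 27.6 and 9.40 CPM (-1.55, -2.50 to -0.61). Of the metabotropic GABA-B receptor and its auxiliary proteins, 1 of 5 genes in bipolar-like and 1 of 4 in amacrine-like cells was called higher in ND6, Kctd16 both times (0.60 and 1.43), and none was called lower. In bipolar-like cells 14.5% of 11528 genes were called higher and 4.68% lower. Of the genes for the inhibitory postsynapse and chloride transport, 0 of 9 were called in bipolar-like cells. In amacrine-like cells Lhfpl4 and Shisa7 were called higher and Nptn and Slc12a2 lower of 10, beside the shares of 17.9% and 10.2% over all genes. Slc12a5, the chloride exporter KCC2 that sets the direction of the GABA current, was at 697.1 and 693.4 CPM in bipolar-like cells (-0.01, -0.11 to 0.09). The transcripts of the chloride exporter were thus level between the libraries in the class where Gabrr1 and Gabrr2 were lower. The third rho gene, Gabrr3, was not called there, and the makeup of the class differed between the libraries.

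Likeness was measured as Pearson's r of log2(CPM + 10) over the 17 clusters with both libraries summed, as a description over clusters that share their libraries and depth. Gabrr1 ran closest to Grm6, the glutamate receptor of ON bipolar cells, Fam135b and Grm5, each at 0.99, and Gabrr2 to Cpne7 at 0.98. The rho genes correlated with each other at 0.96. Gabra3 ran closest to Scrt2 and Fut9 at 0.99 and Gabrg3 to Fut9 and Necab3 at 0.98, with 0.97 between these members. Among the genes most like Gabra2 was Slc17a6, a vesicular glutamate transporter of ganglion cells, at 0.95, and Gabrb1 ran closest to Jakmip2 at 0.91.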

How the data were processed

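Each library was deposited as raw UMI counts per gene and barcode, which the authors made from 10x Genomics 3′ reads with Cell Ranger 3.0.2 and mm10. The strand setting is not given in the sources used here, and other samples of the study were not analysed here. The limits on cells follow the study's methods. Clusters (3000 variable genes without the members and related lists, 30 principal components, 20 neighbours, Leiden resolution 1, scanpy 1.11.5) were named for the class with most markers among the 10 leading genes when 3 or more of its markers were raised 2-fold and the first leading gene marked no other class, with rods named against the other classes. Subclusters used 2000 genes and 20 components and the same rule. The naming rule was settled after the clusters had been seen, and the members and lists were chosen with earlier results of these data known. By rule, all 7 members were named, as were genes of the related lists with at least 20 UMIs in bipolar-like or amacrine-like cells and the genes most like each member. Doublet calling marked 0 WT and 1 ND6 cells and so did not work, and doublets were kept. Summed UMIs were scaled to CPM, with exact Poisson, conditional binomial and Clopper-Pearson intervals (scipy 1.17.1) that were checked on simulated data. An entry at 0 allows up to 3 counts. No p-value was computed. Positions are from the GRCm38 annotation, in which the first exon of Gabrb1 overlaps Gabra4 on the opposite strand. Some genes that the rule would name are not reported here.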

Additional observations from a re-analysis of the deposited data

Results flagged for a closer look

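Barcodes above the limit on mtDNA-encoded UMIs, 10647 in WT and 3861 in ND6, entered no main comparison, only the alternative without an mtDNA limit, and held member transcripts. Summed over the members, these barcodes had 18.5 CPM in WT and 49.84 CPM in ND6, a log2 ratio of ND6 to WT of 1.43 (1.16 to 1.70). The sum in free RNA was 30.95 CPM in WT and 97.61 CPM in ND6, so the sums of these barcodes were not above free RNA. The part of free RNA in the ratios of these barcodes was not tested. By member, the log2 ratio in these barcodes was 1.4 for Gabrr1, 1.99 for Gabra2, 1.66 for Gabra3, 3.0 for Gabrb1 and 2.4 for Gabrg3, each with an interval above 0, and 0.38 (-0.13 to 0.87) for Gabrr2.

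In 3 members the log2 ratio of ND6 to WT had opposite signs in different classes, with intervals on either side of 0. Gabrr1 was at 2.32 in rod-like and -0.73 in bipolar-like cells. Gabrr2 was at 1.34 in RPE-like cells and at -0.33, -1.21 and -1.63 in bipolar-like, rod-like and cone-like cells. Gabrg3 was at 3.34 in rod-like and 0.75 in cone-like cells and at -0.53 in amacrine-like cells. Of the 89 WT UMIs behind this amacrine-like ratio, 38 lay in the subcluster led by Ttr, Ptgds and Ebf1. In ND6 that subcluster held 4 of 165. With 1 library per genotype these differences between classes were not tested.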

How the results depend on the processing

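No paired analysis was possible because each genotype had 1 library, and for the same reason no replicate could be left out. Of the 103 values obtained when the 10 main results were recomputed under the alternatives, 91 were counted as unmoved, 11 moved by more and 1 reversed. A ratio counted as unmoved when it stayed within the counting interval of the main value. The main results include the counts of members highest in bipolar-like cells in WT and in ND6. These counts have no interval and were taken as unmoved within 1.5-fold. The summed members in bipolar-like cells, ND6 over WT at -0.45, came to -0.26 with at most 10% mtDNA UMIs, -0.19 without the highest 10% of doublet scores and -0.61 with cells thinned to 400 UMIs. In amacrine-like cells 0.01 came to 0.73 without an mtDNA limit and 1.64 after thinning. In rod-like cells 0.32 came to 0.05 with at most 10% mtDNA UMIs, 1.03 as a mean over cells and 0.89 after thinning. In Müller-like cells 1.10 came to 0.15 with at least 1000 UMIs per cell and reversed to -0.58 after thinning, and without an mtDNA limit no Müller-like class was found. The bipolar-like sum over free RNA in ND6, 1.93, was 2.54 without subclusters rich in markers of other cells, an alternative chosen after seeing the data, and the amacrine-like sum over free RNA in WT, 2.93, was 1.77 after thinning. Of 210 values for single members, 186 moved by no more than counting error and 18 by more. The 6 that reversed were Gabrr1 in amacrine-like (-1.37) and Müller-like cells (-2.09), Gabrg3 in cone-like cells (-0.86) and Gabrr2 in Müller-like cells (-0.15) as a mean over cells, Gabrr2 in Müller-like cells (-0.30) with at least 1000 UMIs, and Gabra3 in amacrine-like cells (0.19) without an mtDNA limit. A value counted as reversed where it had been past 1.5-fold and turned sign, so Gabrg3 in amacrine-like cells, at -0.53, is among those that moved, though it too turned sign, to 0.38 without an mtDNA limit. Thinning leaves few UMIs, and the cause of the other moves was not tested. Subclusters were not recomputed under the alternatives.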
